A study of Mus musculus with 12 samples.

Results

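The testis-specific serine kinases (TSSKs) are a family of small protein kinases made almost only in male germ cells. Their mRNAs and proteins are best known from spermatids, the haploid cells that follow meiosis, where they act in sperm head shaping, flagellum assembly and chromatin condensation, and male mice without individual members are sterile or less fertile. TSSK1 and TSSK2 phosphorylate the centriole-associated protein TSKS, and TSACC is a co-chaperone that brings TSSK kinases to HSP90. The question here was where and when the starts of 5 TSSK genes (Tssk1, Tssk2, Tssk3, Tssk4 and Tssk6) carried a mark of active transcription initiation while spermatocytes were still in prophase I of meiosis.

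Nascent transcription was measured in spermatocytes of adult wild-type (genotype WT) mice, enriched by size and density (STAPUT sedimentation) for 3 substages: leptonema/zygonema (LZ), when homologous chromosomes pair, pachynema (P), when they are fully synapsed, and diplonema (D), when they separate. Each substage had 4 libraries, 12 in all, and no group carried a mutation or drug. The assay was leChRO-seq, a run-on on chromatin in which RNA polymerases that are already engaged add biotin-labelled nucleotides, so that the RNA being made can be purified and sequenced. The fractions are enrichments, not pure cells. The study's results describe most other cells in its fractions, sorted by STAPUT or by flow cytometry, as elongated spermatids. TSSK mRNAs are known in that cell type. For the STAPUT fractions its methods name possible contamination by germ cells of earlier or later stages. The 4 libraries of a substage were merged before dREG, a classifier that recognises the paired, divergent nascent RNA pattern of active promoters and enhancers, called peaks on them. Each substage therefore has 1 list of peaks, with a dREG score and a p-value per peak, no replicate spread and no read counts; the lists do not give the depth behind them, and no test between substages was made.

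The LZ list held 71107 peaks, the P list 68352 and the D list 38603, 178062 in all. A peak was assigned to a gene when its edge lay under 1000 bp from a transcription start site (TSS) of the gene in GENCODE M21 on mm10, and 21 peaks met this for the TSSK genes, 9 in LZ, 7 in P and 5 in D. Of these 21 peaks, 9 covered an annotated TSS. The rule for the members, gene family and distance from a start, uses no score or p-value. The dREG score was not scaled between lists, so scores are compared here as percentiles, the percent of peaks of the same list with a lower score. The D list is shorter, and a percentile depends on how many weak peaks a list holds. The TSSK calls and the differences between TSSK ranks are therefore also given with each list cut to its 38603 highest-scoring peaks (equal lists). Percentiles of markers and of related genes, and percentiles among called genes, are from the lists as deposited only. The farthest peak inside the distance limit was 804 bp from Tssk6 in P, followed by 509 bp from Tssk3 in LZ, and the nearest outside it were 2153, 2223 and 2243 bp from Tssk1 in P, LZ and D.

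Markers of several cell types were looked up as a check of the lists. The spermatocyte genes Sycp1, Sycp3, Dmc1 and Spo11 were called in every list (4 of 4), at percentiles from 81.9 to 94.3 in LZ, 68.2 to 96.2 in P and 46.8 to 99.1 in D. The Leydig cell genes Star, Cyp17a1 and Insl3 had no call (0 of 3 in each list). Of the Sertoli cell genes, Amh and Rhox5 had no call, Sox9 was called in all 3 lists at percentiles 21.1, 58.3 and 53.8, and Wt1 was called in P and D at 26.9 and 9.02. The spermatid genes Prm1 and Tnp1 were called in every list, with a median percentile of 69.0 in LZ, 64.7 in P and 81.2 in D. Of the spermatogonial genes, Zbtb16 was called at percentiles 71.3, 74.4 and 66.3 in LZ, P and D, Kit at 82.3, 82.9 and 16.9, and Stra8 at 65.1 and 50.9 in LZ and P. In each list some of these lay as high as the lowest spermatocyte gene. The part of spermatids or of other cells in the TSSK calls was not tested.

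The genes differ in structure and in what lies beside their starts. Tssk1 (chr16:17894223-17897922) and Tssk2 (chr16:17898637-17900024) are single-exon genes in tandem on the plus strand, with coding lengths of 1098 and 1077 bp. Their coding sequences align at 77.2% identity, the highest of the 10 member pairs, against 46.6 to 55.9% for the other 9. Tssk3 (chr4:129489014-129491022, minus strand) has 2 exons and 807 coding bp, Tssk6 (chr8:69902184-69903518, plus strand) has 1 exon and 822 coding bp, and Tssk4 (chr14:55650184-55652539, plus strand) has 7 transcripts from 3 TSSs, of 3 or 4 exons, and at most 1017 coding bp.

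Sequence just upstream of 3 of the starts is shown because peaks over these bases, or their absence, make up the calls described next. Each is read from the GRCm38.p6 genome (the mm10 build), 5′ to 3′ on the strand of the gene, and is the longest stretch of the 250 upstream bases that holds no base of an annotated untranslated region. None is shown for Tssk6, where all 250 lie in the 5′ untranslated exon of its neighbour Ndufa13. In Tssk3, 103 lie in untranslated regions of Fam229a or of Tssk3 transcripts that RefSeq predicts. The longest free stretch of Tssk3, 74 bp, ends 177 bp before the start and is not shown. In Tssk1, 112 of the 250 lie in untranslated regions. Capitals in Tssk1 and Tssk2 mark the longest run that their 250 upstream bases share (11 bp), and capitals in Tssk4 mark a match to the MYB core described below. The Tssk1 stretch is chr16:17894100-17894202 (123 to 21 bp before the TSS), the Tssk2 stretch chr16:17898387-17898636 and the Tssk4 stretch chr14:55649934-55650183.
Tssk1: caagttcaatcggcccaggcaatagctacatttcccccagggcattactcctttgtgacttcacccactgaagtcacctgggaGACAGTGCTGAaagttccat
Tssk2: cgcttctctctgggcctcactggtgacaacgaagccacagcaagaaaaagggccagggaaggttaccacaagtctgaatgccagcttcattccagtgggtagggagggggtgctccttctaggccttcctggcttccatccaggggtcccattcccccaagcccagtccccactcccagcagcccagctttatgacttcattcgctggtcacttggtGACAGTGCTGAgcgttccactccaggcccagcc
Tssk4: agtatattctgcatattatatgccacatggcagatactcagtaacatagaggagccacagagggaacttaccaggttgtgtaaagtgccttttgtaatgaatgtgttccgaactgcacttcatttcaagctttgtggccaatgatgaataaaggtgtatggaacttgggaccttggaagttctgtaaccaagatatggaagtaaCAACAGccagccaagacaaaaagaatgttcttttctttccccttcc

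Tssk1 and Tssk2 resembled each other upstream as well. Their best local alignment joined 52 columns, 41 of them identical (78.8%), from 73 to 22 bp before the Tssk1 TSS and from 63 to 15 bp before the Tssk2 TSS, with an alignment score of 46 against 16 to 19 for the other 9 pairs. The shared 11-base run occurs on either strand in the 250 upstream bases of 8 of 21853 protein-coding genes (0.0366%). Over the whole 250 bp the pair aligned at 49.8%, beside 39.2 to 49.6% for the other pairs.

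Of the 5 TSSK genes, 4 were called in LZ, 3 in P and 2 in D, and in equal lists 3, 3 and 2, since Tssk2 was then not called in LZ. Of all 21938 protein-coding genes, 60.2% were called in LZ, 60.5% in P and 51.6% in D, so the members' counts lay on both sides of the background, and 5 genes are too few to read more from them. Tssk3 and Tssk6 were called in all 3 lists, as were 49.5% of protein-coding genes. Tssk4 was called in LZ and P only, a pattern of 7.51% of genes. Tssk2 was called in LZ only (2.91%), and Tssk1 in none (35.9%). The D list was the shortest, and 17.3% of the genes called in LZ had no call in D, or 13.2% of those called in both LZ and P.

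**Figure D1:**
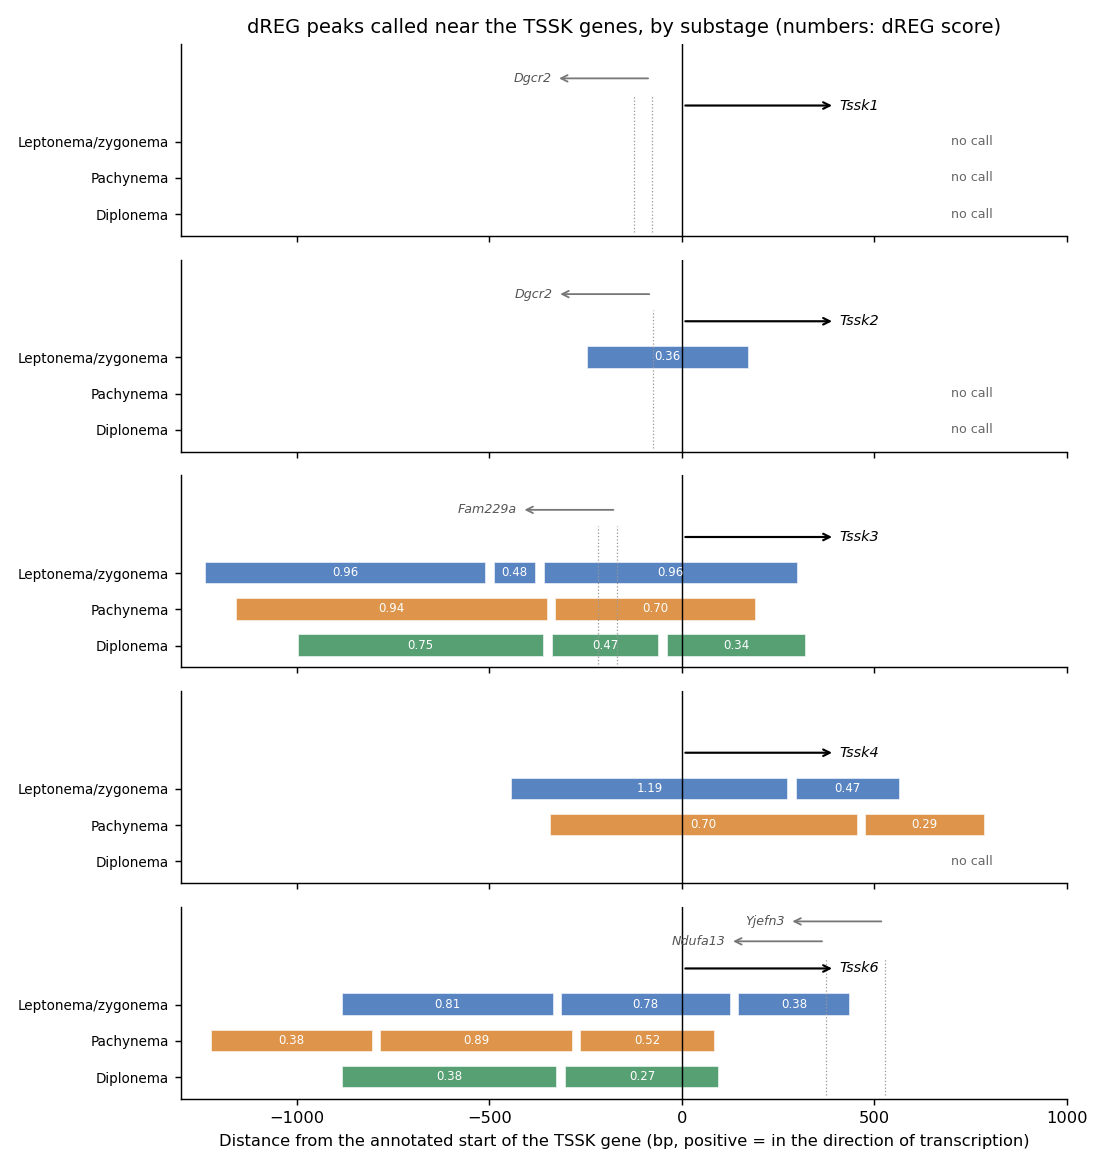
Position of every dREG peak assigned to a TSSK gene, as distance in bp from the most upstream annotated start (vertical line), with 1 row per substage and the dREG score written in each bar. Grey arrows and dotted lines mark starts of neighbouring genes. Tssk1 had no call, and Tssk4 had none in diplonema. A peak of Tssk3 reaches a start of Fam229a in every substage. A peak of Tssk6 reaches the drawn start of Ndufa13 in leptonema/zygonema only.

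Tssk1, one of the kinases that phosphorylate TSKS, had no peak in any list. The nearest peaks, 2223 bp away in LZ, 2153 bp in P and 2243 bp in D, covered the main starts of Dgcr2, a divergent neighbour that encodes a membrane receptor-like protein. Those peaks scored 0.395, 0.486 and 0.416. Minor Dgcr2 transcripts start 78 and 124 bp upstream of Tssk1 in the opposite direction, and no peak lay over them either. Of the 30-base words in the 2000 bp around the Tssk1 start, 85.3% occur once in the genome, the lowest share among the members, and 88.0% of the words before the start do. How far reads that map to several places were lost there was not tested.

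Tssk2, its tandem partner in TSKS phosphorylation, had a single weak peak in LZ. The peak, chr16:17898391-17898810, scored 0.358 (p = 0.0167 as the authors' caller gave it), ranked 59963 of 71107 and lay at percentile 15.6, so most LZ peaks scored higher. It ran from 246 bp before to 173 bp after the Tssk2 start, over the whole local alignment with Tssk1, and it also covered the start of a non-coding Dgcr2 transcript 75 bp upstream on the other strand. Because dREG peaks carry no strand, the calls of Tssk2 and of this Dgcr2 transcript cannot be told apart. In P and D the nearest peaks to Tssk2 were 6567 and 6657 bp away, at Dgcr2. Of the 12791 genes that ranked at least as high as Tssk2 in LZ, 4.27% had no call in P and 15.7% had none in D.

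Tssk4, which encodes a kinase of the sperm flagellum, had the highest-ranking TSSK peak and no neighbour that shared it. In LZ the peak chr14:55649741-55650460 scored 1.192 with a p-value listed as 0, ranked 6164 of 71107 and lay at percentile 91.3. A smaller peak downstream, chr14:55650481-55650750, scored 0.468. In P the peak over the start, chr14:55649841-55650640, scored 0.702 at percentile 62.7, and the downstream peak, chr14:55650661-55650970, scored 0.289 at percentile 2.66. No D peak lay near Tssk4, and the nearest was 13864 bp away at Ipo4, a nuclear import receptor gene. Tssk4 thus stood high in LZ, lower in P and uncalled in D.

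That course was uncommon among called genes. The Tssk4 percentile differed by -28.6 points from LZ to P, and only 3.40% of the 12498 genes called in both lists differed by more in that direction, while the median over those genes was 1.07 points. In equal lists Tssk4 was at 84.0 in LZ and 34.0 in P, and 0.683% of 10841 genes had a lower difference. Of the 3500 genes whose best LZ peak ranked at least as high as that of Tssk4, 61 had no call in D (1.74%, 95% Wilson interval 1.36 to 2.23, which covers counting error only). These are descriptions of merged lists, with no replicate check.

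Tssk3, the kinase with the shortest coding sequence of the family, lies head-to-head with Fam229a, a little-studied gene whose start is 168 bp upstream on the opposite strand. All 8 of its peaks were also under 1000 bp from a Fam229a start. In LZ the peak over the Tssk3 start, chr4:129490721-129491380, scored 0.962 (percentile 78.2) and covered both starts. The upstream LZ peaks scored 0.483 and 0.96. In P the peak over the start, chr4:129490831-129491350, scored 0.705 (percentile 63.0) and again covered both, while the upstream peak scored 0.938 (percentile 79.5). In D the peak over the Tssk3 start, chr4:129490701-129491060, scored 0.337 (percentile 15.4) and ended 130 bp short of Fam229a. A separate D peak over the Fam229a start scored 0.466 (percentile 40.8), and the upstream peak scored 0.746 (percentile 71.7).

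The highest Tssk3 peak was thus at 78.2, 79.5 and 71.7, an order that turned in equal lists (59.8, 63.7 and 71.7), whereas the peak over its own start ranked lower in each later list as deposited (78.2, 63.0 and 15.4) and in equal lists (59.8, 34.4 and 15.4). These are the ranks at the single GENCODE start. The LZ and P peaks over it also covered the Fam229a start and the D peak did not, so the ranks set unlike peaks side by side. The D peak over the Fam229a start was at 40.8. The curated RefSeq start of Tssk3, 252 bp downstream, lies under the same LZ and D peaks and under no P peak. A predicted RefSeq start of Tssk3, 708 bp upstream, lies under the upstream peaks, and with predicted starts included the best peak over a start was at 78.2, 79.5 and 71.7. In P and D the highest peak was the one upstream, which lay under 1000 bp from Fam229a as well. The deposited p-values gave another order, since the weak D peak over the start had a p-value listed as 0, against 1.1e-14 in LZ and 1.95e-07 in P. A p-value listed as 0 did not mark high scores: 24.1% of all D peaks had one, as did 36.5% of the D peaks that scored no higher than this one.

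Tssk6, a kinase needed for histone replacement in spermatids, overlaps its neighbour at the start. The first exon of Ndufa13, a subunit gene of respiratory complex I on the minus strand, begins 374 bp inside Tssk6 and runs out past its start. Yjefn3 has a start 528 bp downstream on the same strand as Ndufa13, and RefSeq lists a further Ndufa13 start 164 bp upstream of Tssk6. In LZ the peak over the Tssk6 start, chr8:69901871-69902310, scored 0.777 (percentile 66.6), the peak upstream of it 0.809 (percentile 68.9), and a further peak over the downstream Ndufa13 start 0.377. In P the peak over the start, chr8:69901921-69902270, scored 0.524 (percentile 44.2), the next one upstream 0.891 (percentile 76.6), and the farthest 0.382. In D the peak over the start, chr8:69901881-69902280, scored 0.274 (percentile 1.82) and the upstream peak 0.375 (percentile 23.9).

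In D the peak over the start was thus near the bottom of the list, and the upstream peak stood higher, at 23.9. The highest Tssk6 peak differed by 7.69 points from LZ to P and by -52.7 points from P to D. Of the 11166 genes called in both P and D, 3.28% differed by more in that direction, and the median over them was -6.20 points. In equal lists the highest peak was at 42.8, 58.6 and 23.9, and 4.27% of 10657 genes had a lower difference from P to D. The same upstream peak was the highest peak near Ndufa13 and near Yjefn3 in all 3 lists, so these ranks belong to the locus and not to Tssk6 alone. In P and D no peak covered a GENCODE start of Ndufa13 or Yjefn3, but the peak over the Tssk6 start covered the upstream RefSeq start of Ndufa13 in all 3 lists, and the calls of these starts cannot be told apart.

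**Figure D2:**
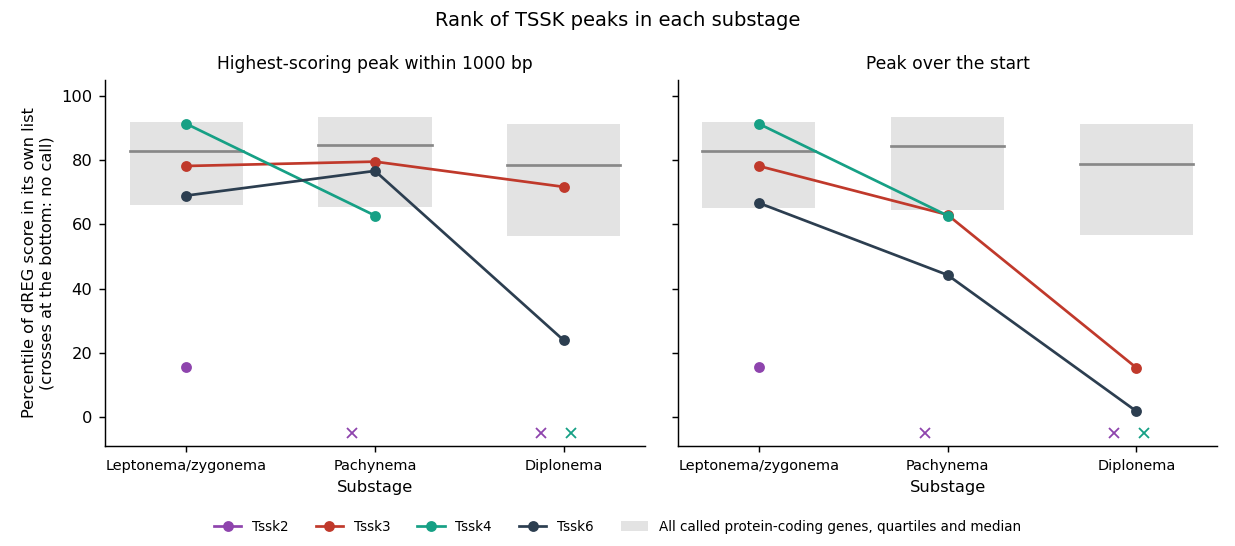
Percentile of dREG score in its own list (y axis) by substage (x axis) for the highest-scoring TSSK peak under 1000 bp from a start (left) and for the peak over the start (right). Grey boxes are the quartiles and the line the median of all called protein-coding genes, and crosses mark no call. On the right, Tssk3, Tssk4 and Tssk6 each rank lower in every later list in which they are called. In equal lists, however, the P and D values of Tssk6 were 1.25 and 1.82. The LZ and P peaks of Tssk3 on the right also cover the Fam229a start, and its D peak does not.

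Only the peak that covers a start was ranked next. Tssk4 was at 91.3 in LZ and 62.7 in P, Tssk3 at 78.2, 63.0 and 15.4, Tssk6 at 66.6, 44.2 and 1.82, and Tssk2 at 15.6 in LZ alone. In the lists as deposited, and at GENCODE starts, no member with such a peak ranked higher in a later substage. With predicted RefSeq starts Tssk3 did so from LZ to P (78.2 and 79.5), while the values of Tssk2, Tssk4 and Tssk6 were the same. In equal lists Tssk6 was at 38.6, 1.25 and 1.82, so that its P to D step turned, while Tssk3 and Tssk4 kept their direction. A peak over a start was present for 56.5% of protein-coding genes in LZ, 56.8% in P and 47.9% in D, and in all 3 lists for 45.7%. Of these 10021 genes, 28.6% ranked lower at both steps, as Tssk3 and Tssk6 did. This ranking was chosen after the peak positions had been seen. For Tssk3 it sets LZ and P peaks that also cover the Fam229a start beside a D peak that does not.

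In the lists as deposited, and at GENCODE starts, these differences lay toward the low end of all genes. From LZ to P, the peak over the start differed by -15.2 points for Tssk3, -22.4 for Tssk6 and -28.6 for Tssk4, and 9.92, 5.83 and 3.98% of 11667 genes had a lower value, with a median of 1.12 points. From P to D, Tssk3 differed by -47.6 points and Tssk6 by -42.4 points, and 4.66 and 6.44% of 10349 genes had a lower value, with a median of -5.89 points. From LZ to D, Tssk3 differed by -62.8 and Tssk6 by -64.8 points, which 2.05 and 1.68% of 10096 genes exceeded in that direction. In equal lists the LZ to P differences were -25.3 points for Tssk3, -37.3 for Tssk6 and -50.0 for Tssk4 (5.74, 2.25 and 0.855% of 10053 genes lower), and the P to D differences -19.1 for Tssk3 and 0.569 for Tssk6 (11.9 and 48.0% of 9822 genes lower). From LZ to D they were -44.4 for Tssk3 and -36.7 for Tssk6 (3.25 and 5.12% of 9489 genes lower). The median P to D difference of all genes was then 1.06 points, against -5.89 as deposited. The P to D difference of Tssk6 in equal lists was thus not toward the low end. For Tssk3 the low values hold for the peak over the GENCODE start only. Its highest peak differed by -6.50 points from LZ to D as deposited, and 44.8% of the 10918 genes called in both lists had a lower value.

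**Figure D3:**
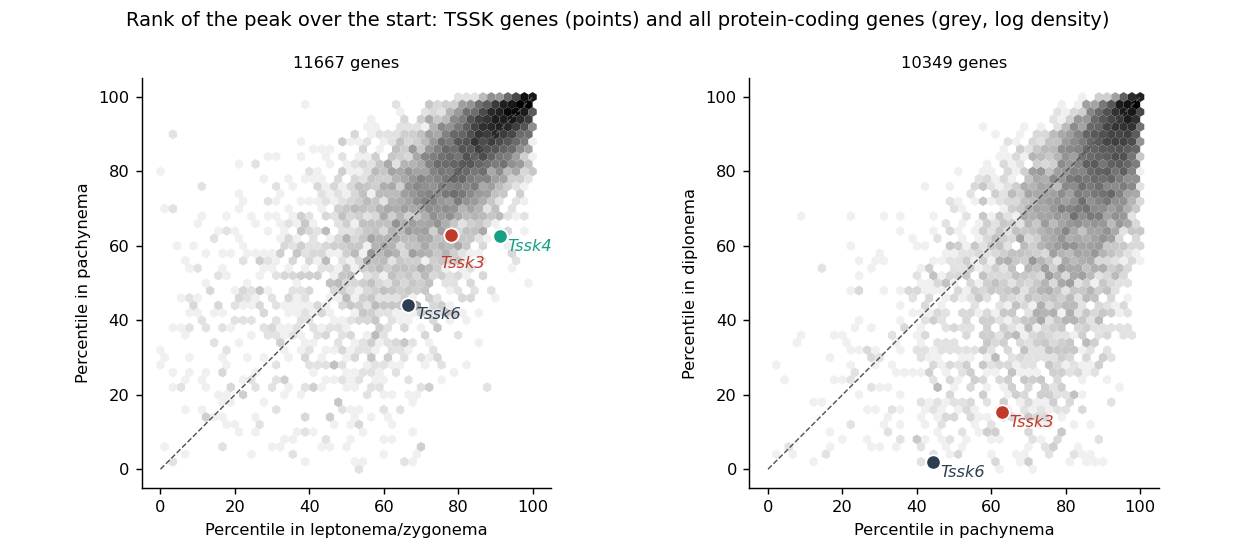
Percentile of the peak over the start in leptonema/zygonema against pachynema (left) and pachynema against diplonema (right), for TSSK genes (coloured points) and all protein-coding genes with such a peak in both lists (grey, log density). Every TSSK point lies below the dashed line of equal rank in these lists as deposited, and the P to D difference of Tssk6 turned to 0.569 points in equal lists.

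Among called genes the members were not strong. Measured against the best peaks of all called protein-coding genes, Tssk3 stood at percentile 40.2, 40.7 and 40.1 in LZ, P and D, Tssk6 at 27.8, 36.4 and 7.38, Tssk2 at 3.16 in LZ, and Tssk4 at 73.6 in LZ and 23.1 in P. Tssk4 in LZ was the sole value above the median of called genes.

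The promoter sequences had little in common apart from the Tssk1 and Tssk2 stretch. Motifs were searched on both strands from 250 bp before to 50 bp after the most upstream start and set beside 21853 protein-coding promoters of the same length. The MYB core CNGTTG, from the motif bound by the meiotic factor A-MYB and its relatives, was found in Tssk3, 22 to 17 bp before the start, and in Tssk4, 46 to 41 bp before it, both on the opposite strand. It occurs in 33.7% of all promoters, so 2 of 5 is near the background. With a window from 500 bp before the start it was in 4 of 5, and in 51.6% of all promoters. The variant MYB core CNGTTA (21.8% of all promoters) was in none of the 5, and in 1 with the longer window (38.9%). The cyclic AMP response element TGACGTCA (2.46%) and its hexamer TGACGT (8.73%, which the full element contains), the X-box letters GTTGCCA (4.28%) and GTTGCTA (3.94%), and the TATA letters TATAAA (12.6%) were also in none. These counts say only which letters the windows hold.

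Base composition differed widely. The Tssk4 window had 43.3% GC and 2 CpGs, the lowest GC of the family (percentile 15.1 of all promoters), and Tssk1 had 52.7% GC and 2 CpGs. Tssk2 had 59.7% GC and 6 CpGs, Tssk6 60.7% and 14, and Tssk3 65% and 19, against a median of 55.3% and 12 over all promoters. The members called in all 3 lists, Tssk3 and Tssk6, had the most CpGs. Their windows also hold a start of Fam229a and a RefSeq start of Ndufa13, so neither the CpGs nor the calls belong to these members alone. The strongest LZ peak, at Tssk4, lay over a window with as few CpGs as Tssk1.

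Genes that work with the TSSK kinases were mostly called. Of 7 partners and substrates, 7 were called in LZ, 7 in P and 6 in D, with median percentiles of 85.2, 85.3 and 87.3 among those called. Over all protein-coding genes 60.2% were called in LZ, 60.5% in P and 51.6% in D, and 7 genes are too few to read more from the counts. Tssk5, the related kinase gene in this list, was at 77.5 in LZ and 31.4 in P and had no D call. Tsks, the TSSK1 and TSSK2 substrate, was at 79.3, 65.4 and 8.80. Tsacc, the co-chaperone, was at 97.1, 98.5 and 99.2. H2afx, which encodes a histone variant whose phosphorylation in spermatids needs TSSK6, was at 81.4, 93.5 and 98.0. These are ranks in lists of different length, with no values in equal lists, so no change between substages is read from them.

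Other lists for comparison kept most of their calls, as protein-coding genes in general did. Of all genes called in LZ, 17.3% had no call in D, and of those called in both LZ and P, 13.2%. The shares of all protein-coding genes called were 60.2% in LZ, 60.5% in P and 51.6% in D. Of 10 other kinases of male germ cells, 9 were called in LZ, 9 in P and 8 in D. Aurkc, an Aurora kinase of meiosis, had none, and Stk31 had none in D. Of 13 genes of late spermatids, 12 were called in each list, the exception being Tnp2, a transition protein gene. Their median percentiles were 81.7, 78.6 and 75.9. The range in D ran from 22.7 for Spem1 to 95.7 for Hils1, a spermatid linker histone. Of 10 genes of spermatocytes, 10 were called in every list, with medians of 89.4, 93.1 and 98.6. The TSSK genes called in D, at 71.7 and 23.9 by peaks shared with their neighbours, were below the D medians of all 4 lists, which ran from 75.9 to 98.6, and below the median of all called genes, 78.6. Prm1 and Prm2, the protamine genes, were at 71.7 as well. Their scores were the same in every list (0.676, 0.561 and 0.747), so both may be called by the same peaks. The counts and medians of their list treat them as separate genes.

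**Figure D4:**
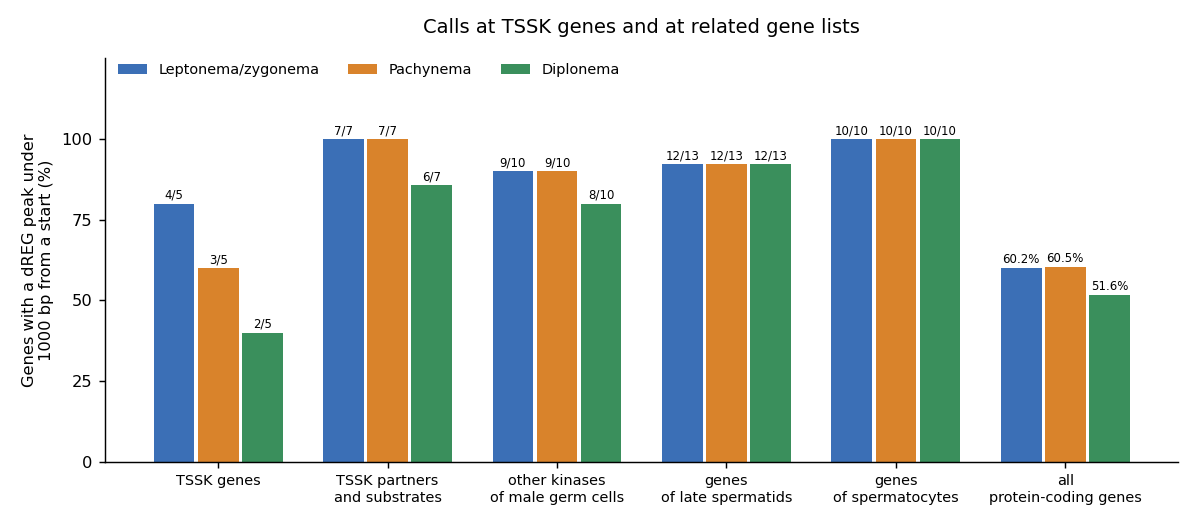
Percent of genes with a dREG peak under 1000 bp from a start, by gene list (x axis) and substage (colours), with counts over the bars and the share of all protein-coding genes at the right. TSSK genes go from 4 of 5 in LZ to 2 of 5 in D (3 of 5 to 2 of 5 in equal lists), and all protein-coding genes from 60.2% to 51.6%. Genes of late spermatids stay at 12 of 13. The other lists were not counted in equal lists, and 5 TSSK genes are too few to read more from the counts.

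Genes with the most similar percentiles over the 3 lists, among those with the same calls and no shared peak, were Timm9 and 2700049A03Rik for Tssk3 (a largest difference of 1.23 points each, among 10849 genes), Mgat5b (1.28) and Ankrd61 (1.34) for Tssk4 (among 1646), and Prss48 (1.30) and Tirap (2.39) for Tssk6 (among 10848). For Tssk2, 4 of 637 genes had the same LZ percentile, of which Wnt9b and Gng11 came first in gene order. Timm9 and 2700049A03Rik had the same percentiles in every list (77.0, 78.3 and 70.9), so both may be called by the same peaks. The likeness rests on 3 lists and is given as a description.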

How the data were processed

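leChRO-seq was done on 4 libraries of each of 3 prophase I substages, grouped by the titles in the labels. The authors removed duplicates by molecular identifier, cut adapters with cutadapt, mapped reads with BWA to mm10 and merged the libraries of a substage before running dREG with default settings (its version is not given in the sources used here). The labels describe single-end and the study's methods paired-end reads. The deposited lists hold a dREG score, a p-value of at most 0.05 (whether adjusted is not stated) and a summit position per peak, the score and p-value being the authors' own.

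Peak edges were compared with 141730 GENCODE M21 transcripts (same build), and percentiles were ranked within a list with ties at the middle. Distances, percentiles and motif searches were checked on simulated data (0 wrong). Wilson intervals are at the 95% level. Sequences are from the RefSeq GRCm38.p6 assembly. Python 3.11.15, pandas 2.3.3 and scipy 1.17.1 were used. Genes named are the members, genes sharing their peaks, the listed genes needed for small counts or as highest and lowest examples, and the closest patterns. Tsacc, H2afx and Tsks were named after their values were seen. The members and lists were chosen with earlier results of these data known. Ranking by the peak over a start and in equal lists was added after seeing the data. Alternatives covered distance, score, p-value, list length, peak joining, annotation and promoter window.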

Additional observations from a re-analysis of the deposited data

How the results depend on the processing

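The counts of TSSK genes called stayed within 1.5 times under 29 of 30 alternatives, the exception being a score of at least 0.5, which left 1 gene in D. The number of TSSK peaks dropped to 5 in LZ and 1 in D with a score of at least 0.5, and to 4 in LZ, 3 in P and 2 in D when adjoining peaks were joined, which by construction counts a run of peaks once. Tssk2 lost its LZ call with a score of at least 0.5, a p-value of at most 0.01 or lists cut to 38603 peaks each. RefSeq starts, chosen as an alternative after seeing the data, gave the same genes, but moved the peak over a Tssk3 start: none in P at the curated start, and 79.5 in P and 71.7 in D with predicted starts. All 36 alternatives for the related lists, which changed distance or score only, left the counts of genes called within 1.5 times. No alternative was run for their percentiles or for list length. The MYB core CNGTTG was in 4 members with a window from 500 bp before the start (51.6% of all promoters), and CNGTTA in 1 with that window (38.9%) or within 100 bp of a best-peak centre.

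Ranks depended on the choice of peak and list. Tssk6 in P was at 76.6 by its highest score, 44.2 by its peak over the start and 1.25 by that peak in equal lists. Tssk3 in D was at 71.7 by its highest score, 15.4 by its peak over the start or by peaks nearest to it alone, and 87.9 by p-value. The cause was not tested. Equal lists, added after seeing the data, turned the P to D direction of the highest Tssk3 peak and of the Tssk6 peak over the start, as the report gives. No paired analysis was possible because the lists are pooled and carry no replicate, so no library could be left out and no spread between replicates is known. The lists give no depth, and a missing call is not absence of transcription.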
